A study of Mus musculus with 19 samples.

Results

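The genes of the tricarboxylic acid (TCA) cycle and of the pyruvate dehydrogenase complex were followed in quadriceps muscle of SBMA mice, on a normal chow diet and on a high-fat diet. The 34 genes were chosen by name: every non-control spot of the arrays whose gene name was on the list was taken. This rule used no measured value, but the list was chosen with earlier results of these data known. All 34 were on the array, with 47 probes among 39429 in all, and all 47 were bright enough to be tested, alongside 24741 genes and 32026 probes tested in the whole series.

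SBMA, or spinal and bulbar muscular atrophy, is a disease of motor neurons and muscle caused by an expanded polyglutamine tract. RNA from quadriceps, a fast-glycolytic muscle, of 180-day-old male C57Bl6J mice was hybridised to 19 one-colour Agilent arrays. CTR mice were wild type and AR113Q mice were knock-in animals, in which the endogenous mouse locus itself carries the expanded tract, so the expanded protein is expressed in every tissue that uses the locus and not in muscle alone. Mice ate the purified normal chow diet D12450B (NCD) or, from 40 days of age, the high-fat diet D12451 (HFD), which gave 5 CTR and 5 AR113Q arrays on the NCD and 4 CTR and 5 AR113Q arrays on the HFD, the groups being called CTR-NCD, CTR-HFD, AR113Q-NCD and AR113Q-HFD. All 4 groups shared age, sex, strain and muscle. The labels do not state that each sample was a separate mouse, so the p-values measure the spread between these samples. The arrays lay on 5 slides, 4 of which held all 4 groups.

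The pyruvate dehydrogenase complex sits at the mitochondrial entry of glucose carbon: it turns pyruvate into acetyl-CoA, is switched off when PDK kinases phosphorylate it, and is switched on again by the PDP phosphatases. The TCA cycle then oxidises acetyl-CoA to carbon dioxide and passes electrons to the respiratory chain. Oxidative muscle fibers hold more of this machinery than glycolytic fibers, and aspartate aminotransferases, malate dehydrogenases, pyruvate carboxylase and PEP carboxykinases exchange its intermediates with the cytosol.

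The results turn on a few probes, of which the first 30 of 60 bases are shown in the 5′ to 3′ direction of the transcript, with mm9 coordinates of the whole probe. Pdp1, whose 3 probes moved together, was read at 3 places on the minus strand of chromosome 4.
Pdp1, chr4:11885487-11885546: ggtttgaatgctgtctatggttagagaaac
Pdp1, chr4:11887075-11887134: ctcacccatgatttcctcagtgtaacagta
Pdp1, chr4:11887655-11887714: attaccctggcagttcttcagttggaaggg
Pdk3, Suclg2 and Got2, the members whose calls as higher held in the most alternatives, had 1 probe each, all on the minus strand.
Pdk3, chrX:91010227-91010286: cctatattctgtatcttgttatggagttta
Suclg2, chr6:95424712-95424771: tgtgcatacatacagtatttaaagccagat
Got2, chr8:98388339-98388398: gagttacataagaatggagagcataggttt
Pdhx is shown because its 2 minus-strand probes gave different results.
Pdhx, chr2:102861330-102861389: cagcgagctttcatgctcagttggaatcta
Pdhx, chr2:102879784-102879843: ctaccagtctgtgccttaggtgaactctgt

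Levels are given as log2 processed signal minus the 75th percentile of the same array, so that 0 is the level of that percentile, and differences are on the log2 scale. Values of single arrays are listed by replicate number, which was also the number of the slide except for CTR-HFD replicate 4, on slide 5. Averaged over all arrays, 29 of the 34 genes lay above that percentile and 5 (Pdk3, Pdp2, Aco1, Idh1 and Pck2) below it. No member spot was saturated, and each probe was well above background on 17 to 19 of the 19 arrays. Where a gene had several probes, the brightest one stood for it and the others are given where they differed. A member was called when its limma adjusted p, corrected over all probes tested, was under 0.05. Fewer muscle cells of a kind and less RNA per cell cannot be told apart in whole muscle.

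The arrays were of skeletal muscle by their markers: all 6 skeletal muscle genes were tested, and the median of the 6 lay between 6.40 and 7.29 on every array. Slow fiber markers (12 of 12 tested) varied widely between arrays. Their summed linear signal, in units of the 75th percentile, ran on the NCD from 41.5 to 434 in CTR and from 396 to 737 in AR113Q arrays, and on the HFD from 25.1 to 535 and from 38.7 to 314. Of 11 fast fiber markers, AR113Q muscle had 9 called lower on the NCD (9.04% of all genes) and 10 called lower on the HFD (10.2%). The 8 white adipocyte markers and the 4 tested of 5 brown adipocyte markers included 0 and 0 genes called higher in AR113Q-NCD than in CTR-NCD. The brown markers Ucp1 and Cidea were nevertheless higher there at an unadjusted p under 0.05, by 3.75 (adjusted p = 0.140) and 2.08 (adjusted p = 0.0542). The median level of the 4 ran from -1.05 to 3.94 over AR113Q-NCD arrays, with a median of -0.72. Over CTR-NCD arrays it ran from -1.44 to -0.52, with a median of -0.89. The summed linear signal of the 4 was not higher, with a median of 263.5 in AR113Q-NCD and 269.5 in CTR-NCD arrays. The part of these fiber and adipocyte markers in the members' values was not tested.

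On the NCD, 6 of the 34 genes were higher in AR113Q than in CTR quadriceps (8.31% of all genes were called higher) and 1 was lower (9.04% of all genes). The genes that rose were Pdk1, Pdk3 and Pdp2 among the regulators of pyruvate dehydrogenase, Ogdh and Suclg2 in the cycle, and Got2 beside it, and the gene that fell was Pdp1. The median difference of the 34 genes was 0.094, against -0.057 over all genes, with 25 positive and 9 negative values. Requiring in addition a fold of at least 1.5 or at most 0.6 left Pdp2 and Got2 higher (2.26% of all genes) and Pdp1 lower (2.03%). The split depended on scaling: it was 14 higher and 1 lower after quantile normalization, 12 and 1 with the authors' values, and 1 and 0 after normexp background correction. Of all probes, 9.79% were called higher and 8.45% lower after quantile normalization, 9.40% and 8.04% with the authors' values, and 1.29% and 1.26% after normexp. Without AR113Q-NCD replicate 2, 3 genes were higher (6.89% of all probes), Pdk1, Pdp2 and Ogdh no longer being called.

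On the HFD, 3 of the 34 genes were higher in AR113Q than in CTR muscle (7.74% of all genes) and 6 were lower (10.2%). Pdk3, Got2 and Idh1 rose, while Pdp1, Pdk2, Pdhb, Idh3b, Sucla2 and Mdh2 fell. The median difference was -0.077, against -0.081 over all genes, with 12 positive and 22 negative values. With the added fold limit, Pdk3 and Got2 remained higher (2.78% of all genes) and Pdp1 lower (1.92%). Here the direction of the split turned with scaling: 6 were higher and 1 lower after quantile normalization, 5 and 1 with the authors' values, and 2 and 1 after median centring. Of all probes, 10.2% were called higher and 7.85% lower after quantile normalization, 9.67% and 7.28% with the authors' values, and 5.73% and 5.47% after median centring. Leaving out CTR-HFD replicate 3 gave 5 higher genes (7.93% of all probes), and leaving out AR113Q-HFD replicate 3 gave 3 lower ones (7.98% of all probes). Pdp1 was the gene called lower in the main values that was also called lower under each of these scalings on the HFD. Of the 34 genes, 12 were higher in AR113Q on both diets, 9 were lower on both, 13 were higher on the NCD and lower on the HFD, and 0 showed the opposite, compared with 7198, 11748, 3214 and 2581 of all 24741 genes. These signs are those of the main values and also moved. On the HFD 10 of 34 were negative after quantile normalization, 8 of 31 with the authors' values, and 18 of 34 without replicate 3 of both HFD groups.

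**Figure D1:**
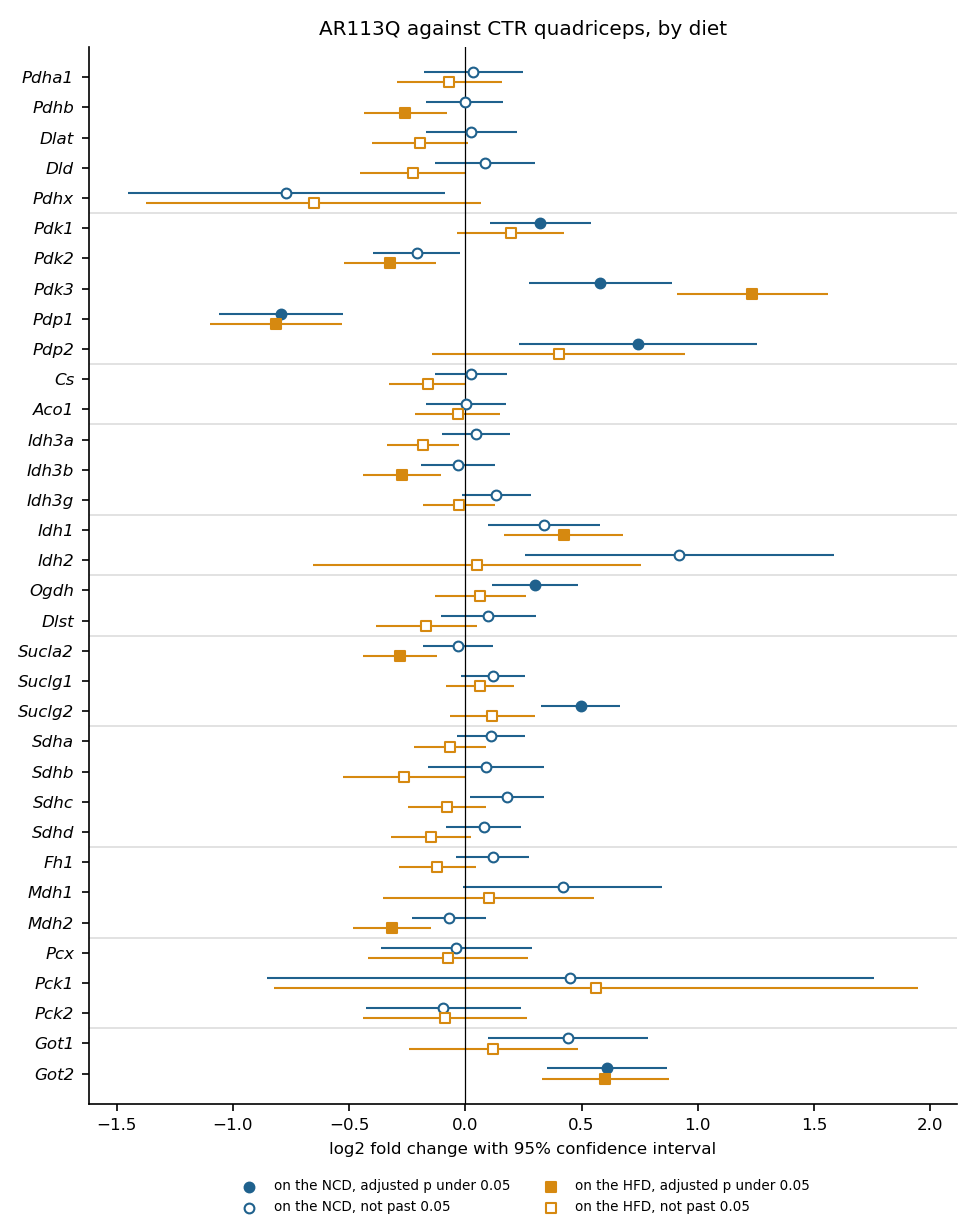
Difference between AR113Q and CTR arrays for each of the 34 genes (log2 scale, horizontal axis), on the NCD and on the HFD, with genes grouped by their role and bars showing the 95% confidence interval of the limma fit. Pdp1 lies to the left of 0 on both diets at -0.79 and -0.81, and Pdk3 and Got2 lie to the right on both.

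Among the kinases and phosphatases that regulate pyruvate dehydrogenase, 4 of 5 were called on the NCD and 3 of 5 on the HFD, in both directions. Of all genes, 8.31% were called higher and 9.04% lower on the NCD, and 7.74% and 10.2% on the HFD. Pdp1 encodes the calcium-activated catalytic subunit of pyruvate dehydrogenase phosphatase, which removes the inhibitory phosphates from the complex. Pdp1 was at 2.58, 2.43, 2.25, 2.48 and 2.85 in CTR-NCD and at 1.63, 1.79, 1.58, 1.65 and 1.97 in AR113Q-NCD arrays. On the HFD it was at 2.63, 2.58, 2.27 and 2.80 in CTR and at 1.75, 1.74, 1.5, 2.07 and 1.72 in AR113Q arrays. Every AR113Q array was below every CTR array on the same diet, and the ranges of both AR113Q groups also lay under those of both CTR groups. The difference was -0.79 ± 0.127 (SE) on the NCD, or 0.577 times the CTR level (limma adjusted p = 0.000323), and -0.81 ± 0.134 on the HFD (adjusted p = 0.000411). The 2-sided exact permutation p was 0.00794 on each diet, which is the smallest these group sizes can give.

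The other 2 Pdp1 probes differed by -0.81 (adjusted p = 0.000634) and -0.68 (adjusted p = 0.00579) on the NCD. On the HFD they differed by -0.96 (adjusted p = 0.000261) and -0.76 (adjusted p = 0.00420). All 3 places on the Pdp1 transcript were thus lower in AR113Q muscle on both diets. Within single slides the difference on the main probe ranged from -0.95 to -0.64 on the NCD and from -1.08 to -0.77 on the HFD. The call held in all 32 alternatives on the HFD and in 31 of 32 on the NCD, the exception being normexp background correction (-0.53, adjusted p = 0.0962).

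Pdp2, the other catalytic phosphatase, moved the opposite way on its main probe. It was at -0.98, -0.88, -0.99, -0.61 and -1.01 in CTR-NCD and at -0.16, 0.0054, -0.096, -0.26 and -0.24 in AR113Q-NCD arrays, with no overlap, a difference of 0.74 ± 0.243 (adjusted p = 0.0433). Blocking on the slide gave an adjusted p of 0.0629, and the call was lost in 15 of 31 alternatives. The second Pdp2 probe, nearer the start of the transcript, differed by 0.030 (adjusted p = 0.956). This second probe was dim, with group means between -5.38 and -5.09, so it gives little evidence either way. On the HFD Pdp2 ranged over -1.65 to 0.022 (median -0.86) in CTR and over -0.86 to 0.20 (median -0.53) in AR113Q arrays, which overlapped, and the difference of 0.40 ± 0.257 was not called (adjusted p = 0.338). Without CTR-HFD replicate 3, the highest of its group, it was 0.69 (adjusted p = 0.0420).

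Pdk3 encodes a pyruvate dehydrogenase kinase, one of the enzymes that shut the complex down. It was at -3.95, -3.72, -3.73, -4.17 and -4.39 in CTR-NCD and at -3.30, -3.35, -3.42, -3.65 and -3.34 in AR113Q-NCD arrays. On the HFD Pdk3 was at -4.20, -4.55, -4.06 and -4.53 in CTR and at -2.86, -3.10, -3.13, -3.48 and -2.94 in AR113Q arrays. The groups did not overlap on either diet, and Pdk3 lay below the 75th percentile on all 19 arrays. Pdk3 was higher by 0.58 ± 0.145 on the NCD, a fold of 1.49 (adjusted p = 0.0100), and by 1.23 ± 0.154 on the HFD, a fold of 2.35 (adjusted p = 3.7e-05). The difference between these 2 effects, 0.65 ± 0.212, did not pass the interaction test (adjusted p = 0.914). Within slides it ranged from 0.32 to 1.05 on the NCD and from 0.93 to 1.59 on the HFD. Normexp background correction gave -0.64 on the NCD and 0.61 on the HFD (adjusted p = 0.922), and Pdk3 kept its call in the other 31 alternatives on each diet.

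Pdk1, a kinase of the same family that is induced under low oxygen, was at 0.033, 0.033, -0.017, -0.13 and -0.031 in CTR-NCD and at 0.24, 0.38, 0.34, 0.21 and 0.34 in AR113Q-NCD arrays. These did not overlap, and the difference was 0.32 ± 0.103 (adjusted p = 0.0381), a call that was lost in 12 of 32 alternatives. On the HFD Pdk1 was at -0.15, -0.16, 0.41 and -0.21 in CTR and at 0.17, 0.13, -0.023, 0.18 and 0.39 in AR113Q arrays. CTR-HFD replicate 3 lay above all AR113Q-HFD arrays, and the other 3 CTR arrays lay under them. The difference was 0.20 ± 0.109 (adjusted p = 0.260) with all arrays and 0.34 (adjusted p = 0.00569) without that array.

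Pdk2, the most widely expressed kinase of the family, went the other way. It was at 5.80, 5.54, 5.70, 5.54 and 5.68 in CTR-NCD and at 5.49, 5.52, 5.35, 5.43 and 5.43 in AR113Q-NCD arrays, which did not overlap, yet the difference of -0.21 ± 0.0883 was not called (adjusted p = 0.124). On the HFD it ranged over 5.41 to 5.82 (median 5.60) in CTR and over 5.11 to 5.48 (median 5.22) in AR113Q arrays, with a called difference of -0.33 ± 0.0937 (adjusted p = 0.0222). Its second probe gave -0.092 (adjusted p = 0.555) on the HFD, and the call was lost after quantile normalization (-0.18, adjusted p = 0.231), after median centring and with the authors' values.

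**Figure D2:**
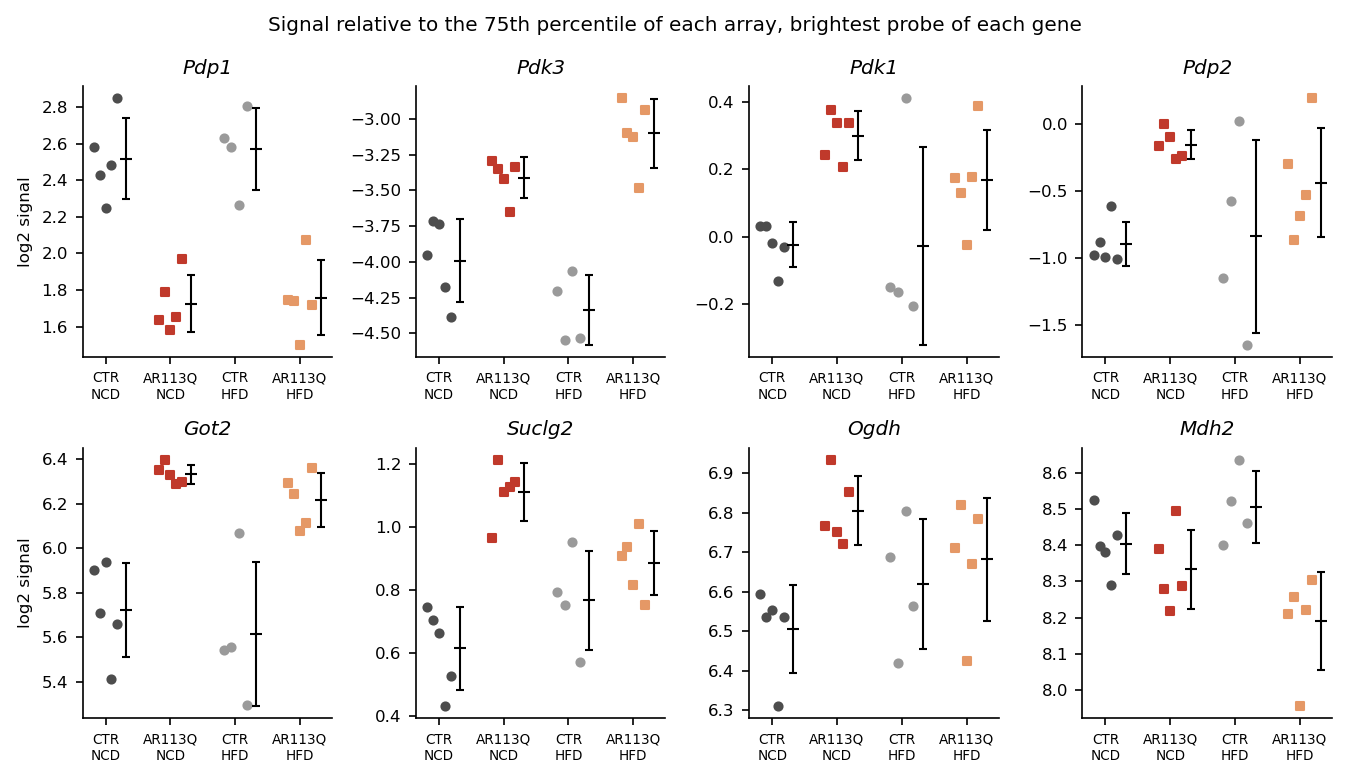
Level of 8 members on each of the 19 arrays (vertical axis, log2 processed signal minus the 75th percentile of the array), by group, with a bar at the group mean and error bars of 1 SD. All AR113Q points lie below the CTR points on the same diet for Pdp1 and above them for Pdk3 and Got2. For Pdk1 CTR-HFD replicate 3 stands above the AR113Q-HFD arrays, and for Pdp2 CTR-HFD replicates 2 and 3 stand among them.

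Of the subunits of the complex itself, 0 of 5 were called on the NCD (8.31% of all genes higher and 9.04% lower) and 1 of 5 on the HFD (7.74% and 10.2%). Pdhx, given below, was lower in AR113Q than in CTR muscle without overlap on both diets, though called on neither. Pdha1, the catalytic E1 alpha subunit that the kinases phosphorylate, ranged over 3.98 to 4.26 (median 4.12) in CTR-NCD, 3.98 to 4.31 (median 4.10) in AR113Q-NCD, 3.84 to 4.30 (median 3.93) in CTR-HFD and 3.75 to 4.08 (median 4.02) in AR113Q-HFD muscle. These ranges overlapped, and the differences between genotypes of 0.034 on the NCD (95% interval -0.18 to 0.25) and -0.069 on the HFD (-0.29 to 0.16) were not called. Pdhb, the E1 beta subunit, was at 5.63, 5.86, 6.03 and 5.78 in CTR-HFD and at 5.52, 5.66, 5.38, 5.61 and 5.66 in AR113Q-HFD arrays. It fell by 0.26 ± 0.0838 on the HFD (adjusted p = 0.0413), with 1 CTR array inside the AR113Q range, and differed by -0.0032 on the NCD (adjusted p = 0.988). Its other probes gave -0.28 (adjusted p = 0.0319) and 0.23 (adjusted p = 0.174) on the HFD, so the last probe, which lies in another part of the gene, pointed the opposite way. The Pdhb call was lost in 17 of 31 alternatives. Dlat, the E2 core, and Dld, the E3 subunit that this complex shares with oxoglutarate dehydrogenase, differed by 0.026 and 0.083 on the NCD and by -0.20 and -0.23 on the HFD, none of them called.

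Pdhx anchors the E3 subunit to the core. It was at 2.05, 2.08, 1.99, 1.90 and 2.13 in CTR-NCD and at 1.58, -0.51, 1.84, 1.78 and 1.61 in AR113Q-NCD arrays. On the HFD it was at 1.87, 2.25, 2.40 and 2.11 in CTR and at 1.39, 1.64, 1.26, 1.65 and 1.59 in AR113Q arrays. Every AR113Q array lay below every CTR array on both diets, but AR113Q-NCD replicate 2, at -0.51, was far below the other arrays and widened the spread that all groups share. The differences of -0.77 ± 0.322 on the NCD and -0.65 ± 0.342 on the HFD were not called with it (adjusted p = 0.119 and 0.225). Without that array they were -0.33 (adjusted p = 0.0541) and -0.65 (adjusted p = 0.000608). The second Pdhx probe differed by 0.043 (adjusted p = 0.923) on the NCD and by 0.49 (adjusted p = 0.120) on the HFD. This second, upstream probe was dim, with group means between -5.96 and -5.40, and well above background on 17 of the 19 arrays, so it gives little evidence either way.

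At the entry of the cycle 0 of 2 genes were called on either diet (8.31% of all genes higher and 9.04% lower on the NCD, 7.74% and 10.2% on the HFD). Cs, citrate synthase, whose activity is a common measure of mitochondrial content, ranged over 7.74 to 7.94 (median 7.83) in CTR-NCD and 7.78 to 7.95 (median 7.83) in AR113Q-NCD arrays, and over 7.72 to 8.02 (median 7.90) in CTR-HFD and 7.51 to 7.88 (median 7.76) in AR113Q-HFD arrays. The differences were 0.024 on the NCD (95% interval -0.13 to 0.18) and -0.16 on the HFD (-0.33 to 0.0021), neither called. After quantile normalization Cs was called higher on the NCD (0.29, adjusted p = 0.00105), and its HFD difference turned to 0.18 and was called (adjusted p = 0.0302). With the authors' values Cs was called higher on the NCD (0.21, adjusted p = 0.0159), so its direction depended on the scaling. Aco1, the cytosolic aconitase that doubles as an iron sensor, differed by 0.0010 and -0.032.

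The NAD-dependent isocitrate dehydrogenase, the regulated enzyme of the mitochondrial cycle, has 3 kinds of subunit. Idh3a, the catalytic subunit, ranged over 5.72 to 5.94 (median 5.87) and 5.83 to 5.93 (median 5.86) in the CTR and AR113Q arrays on the NCD and over 5.81 to 5.94 (median 5.88) and 5.51 to 5.87 (median 5.67) on the HFD. It differed by 0.046 and -0.18, with no call. Idh3b, a regulatory subunit, was at 6.55, 6.37, 6.65 and 6.44 in CTR-HFD and at 6.19, 6.30, 6.08, 6.29 and 6.30 in AR113Q-HFD arrays. Those groups did not overlap, and Idh3b fell by 0.27 ± 0.0793 (adjusted p = 0.0238), while on the NCD it differed by -0.031. The call on the HFD was lost after quantile normalization (-0.081, adjusted p = 0.574) and without CTR-HFD replicate 3 (-0.22, adjusted p = 0.0737). Idh3g, the other regulatory subunit, differed by 0.13 and -0.027.

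The 2 NADP-dependent enzymes make NADPH rather than NADH. Idh1, the cytosolic one, was at -3.01, -2.62, -2.53, -2.71 and -2.81 in CTR-NCD and at -2.36, -2.27, -2.20, -2.61 and -2.56 in AR113Q-NCD arrays. On the HFD Idh1 was at -3.18, -2.70, -2.82 and -3.07 in CTR and at -2.69, -2.57, -2.31, -2.51 and -2.53 in AR113Q arrays, with no overlap. Idh1 rose by 0.42 ± 0.121 on the HFD (adjusted p = 0.0216), a call lost in 8 of 32 alternatives. On the NCD, where CTR and AR113Q arrays overlapped, the difference of 0.34 ± 0.114 had an adjusted p of 0.0513, and blocking on the slide gave 0.00744.

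Idh2, the mitochondrial enzyme and a gene of oxidative muscle, had the widest spread among these steps. It was at 5.87, 5.82, 5.79, 4.87 and 4.87 in CTR-NCD and at 6.18, 6.70, 6.52, 6.21 and 6.20 in AR113Q-NCD arrays. CTR replicates 4 and 5 lay well under the other CTR arrays, and all AR113Q-NCD arrays lay above all CTR-NCD arrays. The difference of 0.92 ± 0.315 just missed the threshold (adjusted p = 0.0533, exact permutation p = 0.00794) and was positive on all 5 slides. It was called in 10 of 32 alternatives, among them quantile normalization (1.04, adjusted p = 0.0300) and the authors' values (1.09, adjusted p = 0.0234). On the HFD, at 5.66, 5.06, 6.65 and 4.71 in CTR and 5.73, 5.44, 4.99, 5.72 and 5.98 in AR113Q arrays, the groups overlapped fully and the difference was 0.051 ± 0.334 (adjusted p = 0.944).

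Oxoglutarate dehydrogenase is the other regulated step. Ogdh, its E1 subunit, was at 6.59, 6.53, 6.55, 6.31 and 6.54 in CTR-NCD and at 6.77, 6.93, 6.75, 6.72 and 6.85 in AR113Q-NCD arrays, with no overlap and a rise of 0.30 ± 0.0871 (adjusted p = 0.0238). The probe next to it on the transcript and a probe further downstream gave 0.25 (adjusted p = 0.109) and 0.41 (adjusted p = 0.00626). Without CTR-NCD replicate 4, the lowest of its group, the main probe gave 0.25 (adjusted p = 0.0691). The call was also lost after median centring (0.32, adjusted p = 0.0774), after normexp (0.60, adjusted p = 0.145) and without AR113Q-NCD replicate 2 (adjusted p = 0.0643) or 5 (adjusted p = 0.0546). On the HFD Ogdh ranged over 6.42 to 6.80 (median 6.63) in CTR and 6.42 to 6.82 (median 6.71) in AR113Q arrays and differed by 0.063 (adjusted p = 0.715), a difference that was called after quantile normalization (0.28, adjusted p = 0.0282) and with the authors' values (0.30, adjusted p = 0.0249). Dlst, the E2 subunit, differed by 0.099 and -0.17, neither called.

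Succinyl-CoA ligase pairs 1 alpha subunit with 2 alternative beta subunits. Suclg2, the beta subunit of the GTP-forming enzyme, was at 0.75, 0.71, 0.66, 0.43 and 0.53 in CTR-NCD and at 0.96, 1.21, 1.11, 1.13 and 1.14 in AR113Q-NCD arrays. The AR113Q-NCD values were all above the CTR-NCD values, and Suclg2 rose by 0.50 ± 0.0811, a fold of 1.41 (adjusted p = 0.000400), with within-slide differences from 0.22 to 0.69. This call held in all 32 alternatives. On the HFD, at 0.80, 0.75, 0.95 and 0.57 in CTR and 0.91, 0.94, 0.82, 1.01 and 0.75 in AR113Q arrays, the groups overlapped and the difference was 0.12 ± 0.0860 (adjusted p = 0.417). The change in effect between diets, -0.38 ± 0.118, was not called (adjusted p = 0.914).

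Sucla2, the beta subunit of the ATP-forming enzyme, was at 6.45, 6.43, 6.63 and 6.48 in CTR-HFD and at 6.18, 6.30, 5.98, 6.35 and 6.27 in AR113Q-HFD arrays. It fell by 0.28 ± 0.0751 without overlap (adjusted p = 0.0143), and on the NCD it differed by -0.031 (adjusted p = 0.838). The HFD call was lost after quantile normalization (-0.086, adjusted p = 0.414), after median centring (adjusted p = 0.127) and with the authors' values (-0.065, adjusted p = 0.591). Suclg1, the shared alpha subunit, differed by 0.12 and 0.062, with no call.

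Succinate dehydrogenase, which is also complex II of the respiratory chain, had 0 of 4 subunits called on either diet. Of all genes, 8.31% were called higher and 9.04% lower on the NCD, and 7.74% and 10.2% on the HFD, so no call among so few genes says little. Sdha, the flavoprotein that binds succinate, ranged over 5.39 to 5.53 (median 5.45) and 5.46 to 5.70 (median 5.51) in CTR and AR113Q arrays on the NCD and over 5.35 to 5.67 (median 5.40) and 5.31 to 5.46 (median 5.39) on the HFD. It differed by 0.11 (95% interval -0.034 to 0.26) and -0.065 (-0.22 to 0.090). The iron-sulfur subunit Sdhb and the membrane anchors Sdhc and Sdhd differed by 0.088, 0.18 and 0.078 on the NCD and by -0.26, -0.079 and -0.15 on the HFD. All 4 subunits were thus positive on the NCD and negative on the HFD, in sizes that the test did not separate from 0, and after quantile normalization the HFD difference of Sdha turned to 0.090.

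Among the last steps, Mdh2, the mitochondrial malate dehydrogenase, was at 8.40, 8.52, 8.64 and 8.46 in CTR-HFD and at 8.21, 8.26, 7.96, 8.22 and 8.30 in AR113Q-HFD arrays. It fell by 0.32 ± 0.0801 with no overlap (adjusted p = 0.0105), and its range on the NCD was 8.29 to 8.53 (median 8.40) in CTR and 8.22 to 8.49 (median 8.29) in AR113Q arrays. On the HFD its sign turned with scaling, to 0.15 after quantile normalization (adjusted p = 0.0992) and to 0.18 with the authors' values (adjusted p = 0.0380). On the NCD Mdh2 was called higher after quantile normalization (0.30, adjusted p = 0.00164) and with the authors' values (0.33, adjusted p = 0.000418). The direction for Mdh2 was thus not fixed by these data. Mdh1, the cytosolic enzyme, ranged over 3.42 to 4.22 (median 4.18) in CTR-NCD and 4.09 to 4.68 (median 4.32) in AR113Q-NCD arrays and differed by 0.42 ± 0.202 (adjusted p = 0.186) and, on the HFD, by 0.10. Fh1, fumarase, differed by 0.12 and -0.12, neither called.

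Got2, the mitochondrial aspartate aminotransferase of the malate-aspartate shuttle, was at 5.90, 5.71, 5.94, 5.41 and 5.66 in CTR-NCD and at 6.35, 6.40, 6.33, 6.29 and 6.30 in AR113Q-NCD arrays. On the HFD Got2 was at 5.54, 5.56, 6.07 and 5.30 in CTR and at 6.29, 6.25, 6.08, 6.11 and 6.36 in AR113Q arrays. All AR113Q arrays stood above all CTR arrays on the same diet, with CTR-HFD replicate 3 only just under the lowest AR113Q-HFD array. The rise was 0.61 ± 0.122 on the NCD (fold 1.53, adjusted p = 0.00205) and 0.60 ± 0.129 on the HFD (fold 1.52, adjusted p = 0.00342). Within slides it ran from 0.39 to 0.88 and from 0.0078 to 1.07. Each call held in 31 of 32 alternatives, the exception being normexp. Got1, its cytosolic partner, was at 6.01, 5.79, 5.87, 5.25 and 5.34 in CTR-NCD and at 6.02, 6.23, 6.10, 6.15 and 5.95 in AR113Q-NCD arrays, which overlapped, with a difference of 0.44 ± 0.163 (adjusted p = 0.0741).

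Of the genes that feed or drain the cycle, 0 of 3 were called on either diet (8.31% of all genes higher and 9.04% lower on the NCD, 7.74% and 10.2% on the HFD). Pcx, pyruvate carboxylase, which makes oxaloacetate from pyruvate, ranged over 3.47 to 4.10 (median 3.59) in CTR-NCD, 3.42 to 3.99 (median 3.71) in AR113Q-NCD, 3.24 to 4.01 (median 3.64) in CTR-HFD and 3.36 to 3.73 (median 3.50) in AR113Q-HFD muscle. It differed between genotypes by -0.038 and -0.075. Pck1, the cytosolic PEP carboxykinase, which white fat also uses to make glycerol, was the most variable member, at 0.31, 1.11, 1.74, 3.28 and 1.69 in CTR-NCD and 1.35, 2.19, 2.60, 1.92 and 2.34 in AR113Q-NCD arrays. On the HFD Pck1 was at -0.31, 1.78, -0.63 and 0.48 in CTR and 0.72, 0.40, 2.95, -0.58 and 0.97 in AR113Q arrays. The groups overlapped widely and the differences of 0.45 ± 0.617 and 0.56 ± 0.654 were not called. Adipoq, a defining gene of adipocytes, was on the NCD at 1.34, 2.01, 2.91, 3.72 and 2.53 in CTR and 1.84, 2.0, 3.55, 2.81 and 2.86 in AR113Q arrays, and on the HFD at 1.71, 3.75, 1.46 and 3.39 and 1.83, 2.30, 3.46, 1.07 and 2.07, and its part in the Pck1 values was not tested. Pck2, the mitochondrial form, differed by -0.095 and -0.088.

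Averaged over both diets, 7 genes were higher in AR113Q muscle (13.0% of all genes) and 6 lower (16.0%). The higher genes were Pdk3 (0.91), Got2 (0.61), Pdp2 (0.57), Idh1 (0.38), Suclg2 (0.31), Pdk1 (0.26) and Ogdh (0.18). The lower genes were Pdp1 (-0.80), Pdhx (-0.71, adjusted p = 0.0300), Pdk2 (-0.27), Mdh2 (-0.19), Sucla2 (-0.16) and Idh3b (-0.15, adjusted p = 0.0452). For Mdh2 the direction depended on the scaling, as given above. After quantile normalization 15 were higher and 2 lower (16.8% and 13.9% of all probes), with the authors' values 13 and 2 (16.4% and 13.4%). After median centring 6 were higher and 3 lower (11.7% and 12.2% of all probes), and after normexp 2 and 1 (3.32% and 3.86%). With the added fold limit 2 genes were higher (2.79% of all genes) and 1 was lower (2.29%). Without CTR-HFD replicate 3, 3 genes were lower (16.5% of all probes). Counting single arrays on the NCD, 7 genes had all AR113Q values above all CTR values (7.40% of all genes) and 3 had them all below (8.05%), namely Pdhx, Pdk2 and Pdp1. On the HFD 3 genes stood apart above (7.17%) and 5 below (8.45%), namely Pdhx, Pdp1, Idh3b, Sucla2 and Mdh2.

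The HFD was compared with the NCD within each genotype, to ask what the diet changed in diseased and in healthy muscle. In AR113Q muscle 0 of the 34 genes were called by limma in either direction (0% of all genes were called higher and 0.0202% lower), with 14 lower and 1 higher at an unadjusted p under 0.05 (856 and 795 of all 24741 genes). Of the 34, 31 had a lower mean on the HFD, where 12488 of all 24741 genes did, and the median difference was -0.17 against -0.002. The count was 28 of 31 genes with the authors' values, 30 of 34 after normexp, and 31 or 32 of 34 under the other alternatives. All 34 genes were read on the same arrays, so their signs are not separate observations. The median level of the 34 genes was 5.45 in AR113Q-HFD replicate 2 and 5.44 in AR113Q-NCD replicate 4, so the groups overlapped. Between replicates that median had an SD of 0.14. In 4 genes, Idh3b, Idh2, Sucla2 and Got1, every AR113Q-HFD array lay below every AR113Q-NCD array, against 1.08% of all genes.

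Idh3b, with the smallest p of this comparison, went from 6.39 to 6.55 (median 6.52) in AR113Q-NCD to 6.08 to 6.30 (median 6.29) in AR113Q-HFD arrays, a difference of -0.27 ± 0.0748 (adjusted p = 0.437, exact permutation p = 0.00794). Sucla2 differed by -0.21 ± 0.0708 (adjusted p = 0.564) and Suclg2 by -0.23 ± 0.0811 (adjusted p = 0.578). The widest differences were those of Idh2 at -0.79 ± 0.315 (adjusted p = 0.658) and Pck1 at -1.19 ± 0.617 (adjusted p = 0.788), both among the most variable members. Pdp1 and Pdk3, which separated the genotypes, differed by 0.032 and 0.31 between the diets.

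In CTR muscle 0 genes were called by limma (0% of all genes in either direction), with 1 lower and 0 higher at an unadjusted p under 0.05 (807 and 1268 of all genes). The 34 differences, 21 positive and 13 negative, had a median of 0.042 against 0.019 over all genes. This split turned to 10 positive and 21 negative with the authors' values (median -0.030), to 14 and 20 with array weights, to 15 and 19 without CTR-NCD replicate 4, and to 11 and 23 without CTR-HFD replicate 3 (median -0.049), so no direction is given for CTR muscle. No gene had groups that stood apart (1.46% of all genes above and 1.17% below). The smallest p-values belonged to Pdk3 (-0.34 ± 0.154, adjusted p = 0.556), Fh1 (0.16 ± 0.0785, adjusted p = 0.605) and Pck1 (-1.30 ± 0.654, adjusted p = 0.605). Fh1 ranged over 5.30 to 5.55 (median 5.46) in CTR-NCD and 5.48 to 5.74 (median 5.61) in CTR-HFD arrays.

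Averaged over genotypes, 0 genes were called by limma (0.00404% of all genes higher and 0.0202% lower) and 31 of 34 differences were negative, where 11941 of all 24741 genes had a negative one. After normexp background correction the split turned, to 8 negative and 26 positive. At an unadjusted p under 0.05, 0 were higher and 4 lower (1582 and 1140 of all genes), and the smallest p-values were those of Pck1 (-1.24 ± 0.450, adjusted p = 0.337), Idh3b (-0.15, adjusted p = 0.348) and Pdha1 (-0.17, adjusted p = 0.414). For the interaction, the effect of the HFD in AR113Q minus that in CTR muscle, 0 genes were called by limma (0% of all genes in either direction), with 8 lower and 1 higher at an unadjusted p under 0.05 (681 and 457 of all genes). There 29 of 34 values were negative, with a median of -0.22 against -0.020 over all genes. The median was -0.13 with the authors' values, -0.14 after quantile normalization and -0.093 without both HFD arrays numbered 3. The smallest p-values were those of Suclg2, Pdk3 and Sucla2, whose interaction terms were -0.38, 0.65 and -0.25 (adjusted p = 0.914, 0.914 and 1.0).

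**Figure D3:**
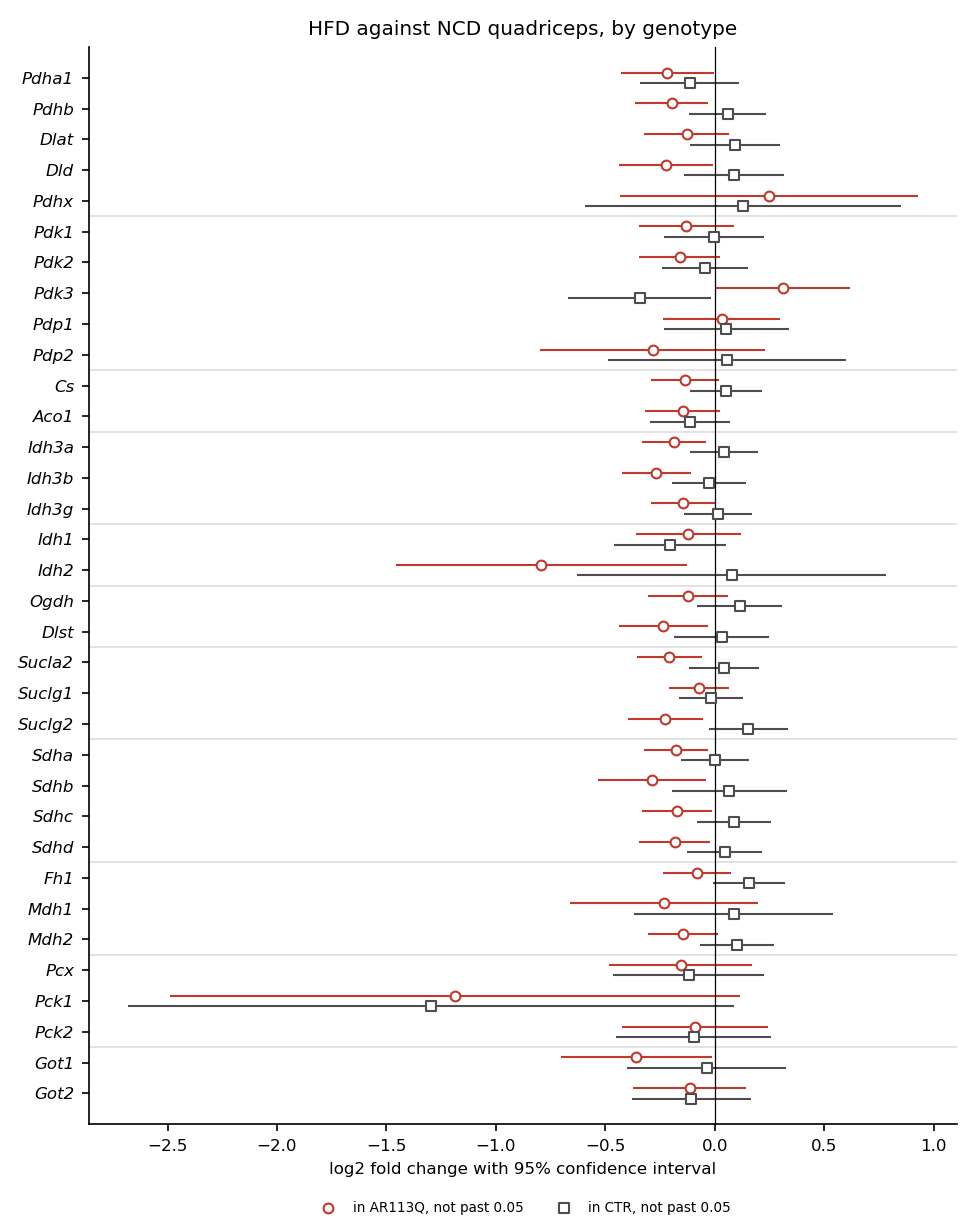
Difference between HFD and NCD arrays for each of the 34 genes (log2 scale, horizontal axis), in AR113Q and in CTR muscle, with bars showing the 95% confidence interval of the limma fit. In AR113Q muscle 31 of the 34 points lie left of 0, in CTR muscle 13 do (23 without CTR-HFD replicate 3), and none of the differences passed the test in either genotype.

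Idh2, Got1 and Mdh1, chosen after their values were seen, were set beside the slow fiber markers of the same arrays. The median level of the 12 slow fiber genes was on the NCD 3.47, 3.48, 4.02, 0.64 and 1.64 in CTR and 3.53, 4.31, 4.23, 3.93 and 3.96 in AR113Q arrays. On the HFD this median was 2.12, 0.14, 4.07 and -0.76 in CTR and 3.07, 1.29, 0.99, 3.25 and 3.44 in AR113Q arrays. CTR-NCD replicates 4 and 5 were low, as they were for Idh2, Got1 and Mdh1, CTR-HFD replicate 3 was the highest of its group for all of these, and AR113Q-HFD replicate 3 the lowest of its group in the slow fiber median, Idh2 and Got1. Other arrays went against this order: CTR-HFD replicate 2 had less slow fiber signal than replicate 1 but more Mdh1 (4.08 against 3.78), and AR113Q-HFD replicate 2, with a low slow fiber median, had Got1 at 5.82 and Mdh1 at 4.28, each the next to highest of its group. Between genotypes the median difference of the 12 slow fiber genes was 2.01 on the NCD (12 of 12 positive, 1 called) and 0.94 on the HFD, and between diets it was -2.10 in AR113Q and -0.92 in CTR muscle. The part of these genes in the Idh2, Got1 and Mdh1 values, and in the lower means of AR113Q-HFD muscle, was not tested. Without both HFD arrays numbered 3, an alternative chosen after the data were seen, 10 members were higher and 1 lower on the NCD (8.96% and 9.77% of all probes). In that alternative 4 were higher and 1 lower on the HFD (7.31% and 9.34% of all probes), and 0 were called between the diets.

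**Figure D4:**
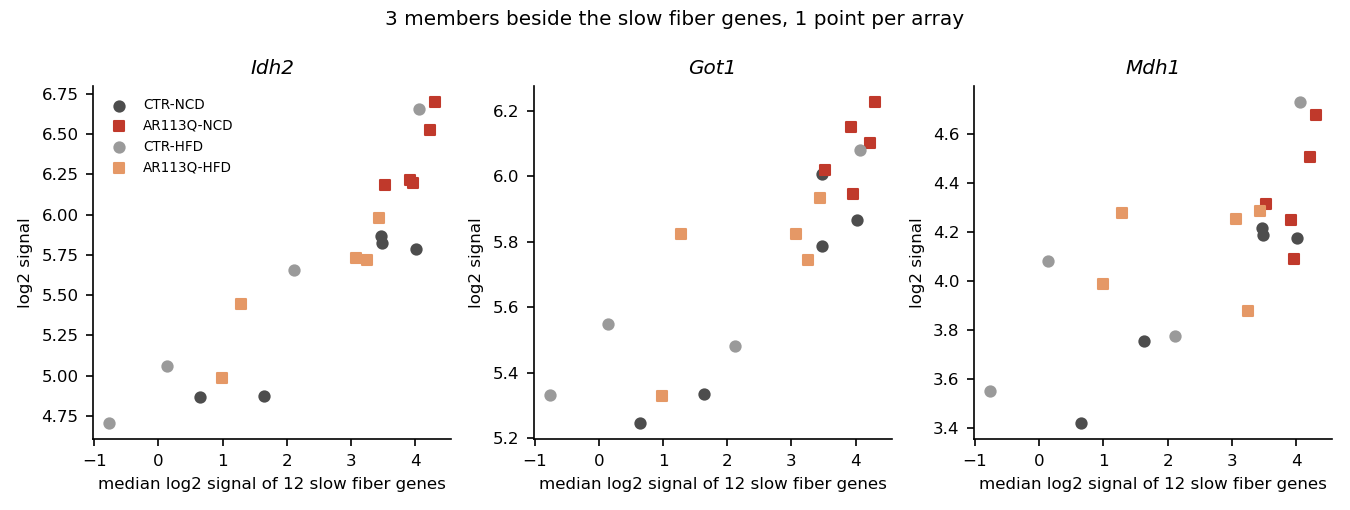
Level of Idh2, Got1 and Mdh1 (vertical axis, log2 processed signal minus the 75th percentile) against the median level of the 12 slow fiber markers on the same array (horizontal axis, same scale), 1 point an array, marked by group. Points come from 19 arrays that share their scaling within an array; CTR-HFD replicate 3 stands at the upper right and CTR-NCD replicates 4 and 5 at the lower left of their groups.

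The members' differences as a group moved with the scaling, and the cause was not tested. The median difference between genotypes on the HFD was -0.077 in the main values, 0.060 after quantile normalization and 0.058 with the authors' values, in which 31 of the 34 genes could be matched. The number of negative differences on the HFD was 22 of 34, 10 of 34 and 8 of 31 in these 3 scalings. On the NCD it was 9 of 34, 4 of 34 and 4 of 31. In AR113Q muscle between the diets it was 31 of 34, 31 of 34 and 28 of 31.

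**Figure D5:**
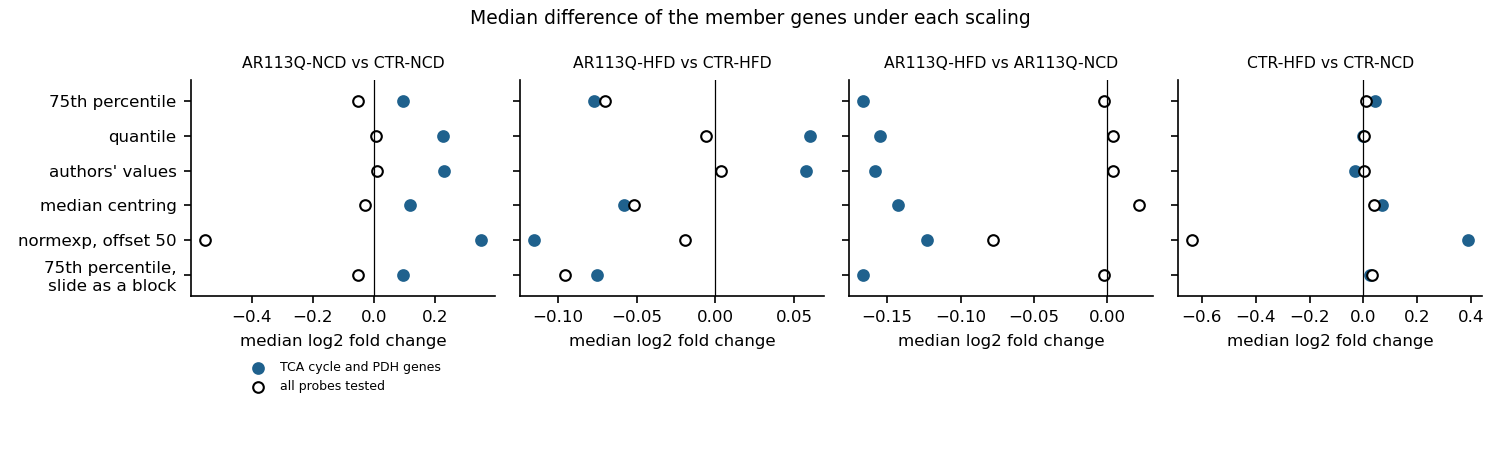
Median difference of the member genes (log2 scale, horizontal axis, filled points) in each comparison under the scalings tried (rows), beside the median over all probes tested under the same scaling (open points). The genotype medians shift to the right after quantile normalization and with the authors' values, and the median for diet in AR113Q muscle stays between -0.17 and -0.12.

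Genes of the same pathway outside the member list were taken from a written list of 40, of which 38 were tested. In AR113Q-NCD against CTR-NCD muscle 8 were higher (8.31% of all genes) and 7 lower (9.04%). Me3 (0.69) and Slc25a1 (0.99), a mitochondrial malic enzyme and the citrate carrier, rose together with Acly (1.01), Acss2 (0.91) and Acss1 (0.84), which make acetyl-CoA from citrate or acetate. Nnt (0.94), the transhydrogenase, Gpt (0.46), an alanine aminotransferase, and the oxoglutarate carrier Slc25a11 (0.26) also rose. Those that fell included Gpt2 (-1.24), the mitochondrial alanine aminotransferase, Me1 (-0.60), the cytosolic malic enzyme, Acn9 (-0.52), an assembly factor of succinate dehydrogenase, Ldha (-0.41), lactate dehydrogenase A, and Lipt2 (-0.41), which attaches lipoic acid.

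On the HFD 2 of these 38 genes were higher (7.74% of all genes), Me3 (0.72) and Me2 (0.44), and 9 were lower (10.2%). The lower genes included Gpt2 (-1.28), Me1 (-0.67), Acn9 (-0.50), Ldha (-0.49), Lipt2 (-0.45), the mitochondrial pyruvate carrier subunit Mpc1 (-0.44) and Fahd1 (-0.29), an oxaloacetate decarboxylase. Pdk4, the kinase that fasting induces, differed by 0.015 and -0.32, neither called. Between the diets in AR113Q muscle 1 gene was called, Acly, which fell by 1.35 (adjusted p = 0.0272), while its other probe gave -0.89 (adjusted p = 0.450).

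Promoter windows from 250 bases before to 50 after the start site, taken from RefSeq on GRCm38.p6, were held for 31 of the 34 genes, and none was held for Pdp1, Idh3a and Sdhc. They were searched on both strands for AAGGTCA, the half-site that estrogen-related receptors, regulators of oxidative genes, are known to bind. It was present in 3 of 31 member genes (9.68%) and in 5.38% of 27025 genes, and the longer form TNAAGGTCA, which contains it, in 1 of 31 (3.23%) and in 1.43%. The 3 stretches are shown with the motif, or its reverse complement, in capitals, as a description of these letters only.
Sdhd, minus strand, chr9:50603800-50603823: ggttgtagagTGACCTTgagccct
Ogdh, plus strand, chr11:6292155-6292181: gacacggcgcTGACCTTggtgcctgcg
Got1, minus strand, chr19:43524834-43524855: cccagAAGGTCAggaggttgtc
In Sdhd and Ogdh the letters lay on the strand opposite to the gene, and in Got1 on the same strand. Of these genes Ogdh was called in one comparison of 2 groups, on the NCD, and Sdhd and Got1 in none.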

How the data were processed

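Spot intensities were deposited per array: the authors labelled each RNA with Cy3, scanned the arrays and ran Agilent Feature Extraction 10.7.3.1, which per the file headers subtracted a background surface fitted across the array, with local background correction off and no normalization between arrays. The authors also deposited a table of log2 values, whose sorted values nearly coincide between arrays; the method is not given in the sources used here, and it was used as an alternative. For the present values the log2 of each intensity was taken, outlier spots were dropped and replicate spots averaged, which turned 43020 spots into 39429 probes, and each array was set to 0 at its own 75th percentile. A probe was tested when 4 or more of the 19 arrays had it well above background in at least 0.5 of its spots. The 4 groups, taken from the sample labels, were fitted together with limma 3.58.1 in R 4.3.3, and p-values were adjusted by Benjamini-Hochberg over all 32026 probes. The fit was tested on simulated data. Alternatives covered scaling, background correction, filters, slide and replicate blocks, array weights and each array left out. Single genes were also compared by 2-sided exact permutation tests. Values and full statistics are given for each member called in any comparison, for a marker enzyme of each step, and for the 3 smallest p-values where none was called. Members, pathway genes and marker lists were chosen with earlier results of these data known. Probe genes and mm9 positions are those of the array design, and promoters come from RefSeq. Some genes of the pathway list are counted but not reported by name here.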

Additional observations from a re-analysis of the deposited data

Results flagged for a closer look

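Of 136 sets made of 1 gene in 1 group of arrays, 8 held an array whose gap to the others was too large for Dixon's test. That is close to the share of about 5% that chance gives, so the 8 are listed as values only. Dld was at 3.18 in AR113Q-NCD replicate 1, with the other arrays of the group at 3.49 to 3.57. Pdhx was at -0.51 in AR113Q-NCD replicate 2, with the other arrays of the group at 1.58 to 1.84. Pdk1 was at 0.41 in CTR-HFD replicate 3, with the other arrays of the group at -0.21 to -0.15. Idh3g was at 7.18 in CTR-HFD replicate 3, with the other arrays of the group at 6.87 to 6.92. Ogdh was at 6.31 in CTR-NCD replicate 4, with the other arrays of the group at 6.53 to 6.59. Suclg1 was at 5.67 in CTR-NCD replicate 4, with the other arrays of the group at 5.91 to 5.99. Sdha was at 5.67 in CTR-HFD replicate 3, with the other arrays of the group at 5.35 to 5.40. Mdh2 was at 7.96 in AR113Q-HFD replicate 3, with the other arrays of the group at 8.21 to 8.30. CTR-HFD replicate 3, with the highest slow fiber marker level of its group, accounted for 3 of the 8 arrays and CTR-NCD replicate 4, with the lowest of its group, for 2. Their part in these values was not tested.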

How the results depend on the processing

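The calls that held best were those of Suclg2 on the NCD and Pdp1 on the HFD (all 32 alternatives), and Pdp1, Pdk3 and Got2 on the NCD and Pdk3 and Got2 on the HFD (31 of 32, not under normexp). Under normexp the sign of Pdk3 on the NCD was reversed, to -0.64. Pdk3 was also dim, with group means between -4.34 and -3.10. The cause of the shifts listed here was not tested. Quantile normalization gave 14 higher genes on the NCD, 6 higher and 1 lower on the HFD, and 15 and 2 averaged over diets, with a median there of 0.14. The authors' values gave 12 higher, 5 and 1, and 13 and 2, with a median of 0.14. Median centring gave 1 lower gene on the HFD and 3 averaged over diets, and the fit of only the groups compared gave 2 lower on the HFD. Normexp, which moved the median of all probes to -0.55 on the NCD and to -0.64 between diets in CTR muscle, gave 1 higher and 0 lower on the NCD, 0 and 1 on the HFD, and 2 and 1 averaged over diets. Its member medians were 0.35 on the NCD, 0.39 between diets in CTR muscle, 0.13 between diets over both genotypes and -0.52 for the interaction. Without both HFD arrays numbered 3, chosen after seeing the data, 10 were higher on the NCD, 1 lower on the HFD and 3 lower averaged over diets. Leaving out 1 array at a time gave 3 to 8 higher on the NCD, 2 to 5 higher and 3 to 7 lower on the HFD, and 3 to 6 lower averaged over diets. No alternative gave a call between the diets or for the interaction.

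After quantile normalization, signs turned, on the NCD Idh3b to 0.097, Mdh2 to 0.30, Pcx to 0.031, Pdhb to 0.11 and Sucla2 to 0.084 and on the HFD Cs to 0.18, Idh3a to 0.0047, Mdh2 to 0.15, Pcx to 0.023, Pdha1 to 0.050 and Sdha to 0.090. With the authors' values, signs turned, on the NCD Idh3b to 0.12, Mdh2 to 0.33, Pcx to 0.064 and Sucla2 to 0.12 and on the HFD Cs to 0.096, Idh3a to 0.024, Mdh2 to 0.18, Pcx to 0.071, Pdha1 to 0.044 and Sdha to 0.055. After normexp, signs turned, on the NCD Idh1 to -0.44, Idh3b to 0.30, Mdh2 to 0.25, Pcx to 0.26, Pdhb to 0.29, Pdk2 to 0.096, Pdk3 to -0.64 and Sucla2 to 0.28 and between diets averaged over genotypes Idh3b to 0.058 and Pdha1 to 0.055. After median centring, signs turned, on the NCD Pdhb to 0.020. Without both HFD arrays numbered 3, signs turned, on the HFD Pck1 to -0.27, Pdha1 to 0.066 and Sdha to 0.028 and between diets in CTR muscle Idh2 to -0.30. With array weights, signs turned, between diets in CTR muscle Idh2 to -0.12. Leaving out 1 array at a time turned the sign of values near 0, whose ranges were on the NCD Cs -0.00062 to 0.051, Idh3b -0.068 to 0.010, Pcx -0.11 to 0.048, Pdha1 -0.0065 to 0.076, Pdhb -0.040 to 0.025 and Sucla2 -0.057 to 0.00058; on the HFD Idh2 -0.22 to 0.43, Mdh1 -0.061 to 0.33, Ogdh -0.0026 to 0.13, Pcx -0.21 to 0.050, Pdha1 -0.12 to 0.029 and Sdha -0.099 to 0.0076; between diets in CTR muscle Idh2 -0.30 to 0.35.

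With the replicate number as a replicate block the counts were 6 higher and 1 lower on the NCD, 3 and 6 on the HFD, and 6 and 6 averaged over diets. Deviations of same-numbered arrays correlated at -0.21 to 0.54 over 27 pairs, 19 of them over 0.1, with a median of 0.24 against -0.085 over 108 other pairs. Same-slide pairs, largely the same arrays, had a median of 0.27, with 22 of 27 over 0.1. As not every pair was over 0.1, the numbers were not taken to pair the samples, a rule that any single low pair breaks. The main p-values therefore leave out what arrays of a slide shared. Blocking on the slide called 9.88% of all probes higher and 14.6% lower on the NCD, against 8.29% and 9.28% in the main fit. On the NCD the replicate block lost the call of Pdp2 (adjusted p = 0.0586) and gained that of Idh1 (adjusted p = 0.00863). Precision was limited by the 4 or 5 arrays of a group.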
